A study of Mus musculus with 8 samples.

Results

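The expression of 50 cell cycle and DNA replication genes was examined in mouse pre-osteoblasts exposed to medium conditioned by lung carcinoma cells. The genes were taken by symbol from a list of known cell cycle genes, chosen with earlier results of these data known. All 50 were found among the 43346 genes of the deposited count table. They were divided by role into 19 S phase genes, 19 G2/M genes and 12 cyclin, cyclin-dependent kinase (CDK) and CDK inhibitor genes. Of the 50, 48 had enough reads to be tested, and Cdkn2a and Cdkn2b had none.

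RNA had been sequenced from MC3T3 cells, a mouse line of pre-osteoblasts able to form mineralized matrix when cultured. The cells of all 8 libraries were held for 7 days with ascorbic acid at 100 ug/mL and beta-glycerophosphate at 10 mM. These supplements drive mineralization. The 4 LLC_CM libraries came from cells that also received 25% conditioned medium, taken from cultures of the Lewis lung carcinoma line LLC1, also of mouse, that had spent 48 hours without serum. The 4 NCM libraries are taken here as the vehicle controls by elimination, because no label says what the 3 letters stand for. The question is what medium conditioned by the carcinoma cells does to the transcripts of the bone-forming cells. The make-up of the vehicle is not given here, so factors released by the carcinoma cells cannot be told apart from other differences between the media. Whether the replicates of a group were grown apart is not stated, and if they were not, the p-values reflect only technical spread among these libraries. In such bulk samples, a change in the share of cells at a stage of the cycle and a change in RNA per cell cannot be told apart.

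Library totals ran from 27264212 to 35573953 counts. Levels are given in CPM, the counts of a gene divided by the size of its library, with sizes scaled by trimmed-mean (TMM) factors of 0.979 to 1.02, and in the order of replicates 1 to 4. A log2 fold change compares LLC_CM with NCM, is positive where LLC_CM is higher, and carries the standard error (SE) of the fit, with 4 libraries on each side. Across 14991 genes tested, 2814 rose and 2717 fell in LLC_CM (edgeR quasi-likelihood test, adjusted p under 0.05), and the median log2 fold change was 0.01. The cells carried the markers of their label: all 8 osteoblast markers examined were expressed, and all 8 fell in LLC_CM, with a summed level of 60308 to 74055 CPM against 90296 to 116194 CPM in NCM. The largest of these falls was that of Bglap, from a mean of 128 CPM in NCM to 1.55 CPM in LLC_CM. Markers of other lineages, the chondrocyte ones apart, summed to at most 32.3 CPM per lineage in any library, but some moved with the treatment. Of 7 macrophage markers 2 rose, Lyz2 and Fcer1g (sum 18.7 to 32.3 against 11.7 to 17.4 CPM, Tyrobp at 0). Lyz2 averaged 20.3 CPM in LLC_CM and 11.5 CPM in NCM. Of 5 adipocyte markers 2 rose, Fabp4 and Cebpa (17.5 to 24.7 against 8.12 to 10.2 CPM). Of 7 epithelial or carcinoma markers 1 rose, Muc1 (1.11 to 2.24 against 0.318 to 0.709 CPM, with Epcam, Krt8, Krt18 and Nkx2-1 at 0). Of 5 chondrocyte markers 1 rose and 2 fell (66.6 to 85.5 against 169 to 194 CPM, Col10a1 at 0). In NCM Hapln1 averaged 107 CPM, Col2a1 53.9 CPM, Sox9 20.4 CPM and Acan 0.017 CPM. Of 4 endothelial markers 1 fell (1.52 to 1.67 against 2.18 to 2.73 CPM, Cdh5 and Kdr at 0). The part of these markers in the cell cycle results was not tested.

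A cell commits to division in G1, when D cyclins with CDK4 or CDK6, and then E cyclins with CDK2, phosphorylate the retinoblastoma protein and free E2F transcription factors. E2F factors drive the S phase genes, whose products load the replicative helicase, make nucleotides and copy DNA. Later, CDK1 with A and B cyclins, the polo and aurora kinases and the spindle machinery carry the cell through mitosis, while CDK inhibitors hold the kinases in check. In bone, proliferation of pre-osteoblasts is known to decline as they mature and mineralize.

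Of the 48 genes tested, 21 rose in LLC_CM, 3 fell and 24 did not pass the test, against 36.9% of all genes tested that passed in either direction. The rises numbered 14 in the S phase class, 6 in the cyclin, CDK and inhibitor class and 1 in the G2/M class. Of the 19 S phase genes 14 rose and 0 fell, while 18.8% of all genes tested rose, and their median log2 fold change was 0.37. The G2/M genes gave 1 rise (Cdk1) and 1 fall (Cdc25b) among 19, with a median of 0.13. Of the 10 cyclin, CDK and inhibitor genes tested, 6 rose and 2 fell (Ccnd1 and Cdk6), where 18.1% of all genes tested fell. The LLC_CM and NCM values did not overlap for 19 of the 48 genes, 17 of them with LLC_CM above, where 36.3% of all genes tested had separate groups and 18.1% had LLC_CM above. The changes were small, and Ccne1 alone among the genes called changed by at least 2-fold. The difference between the classes was not tested.

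**Figure D1:**
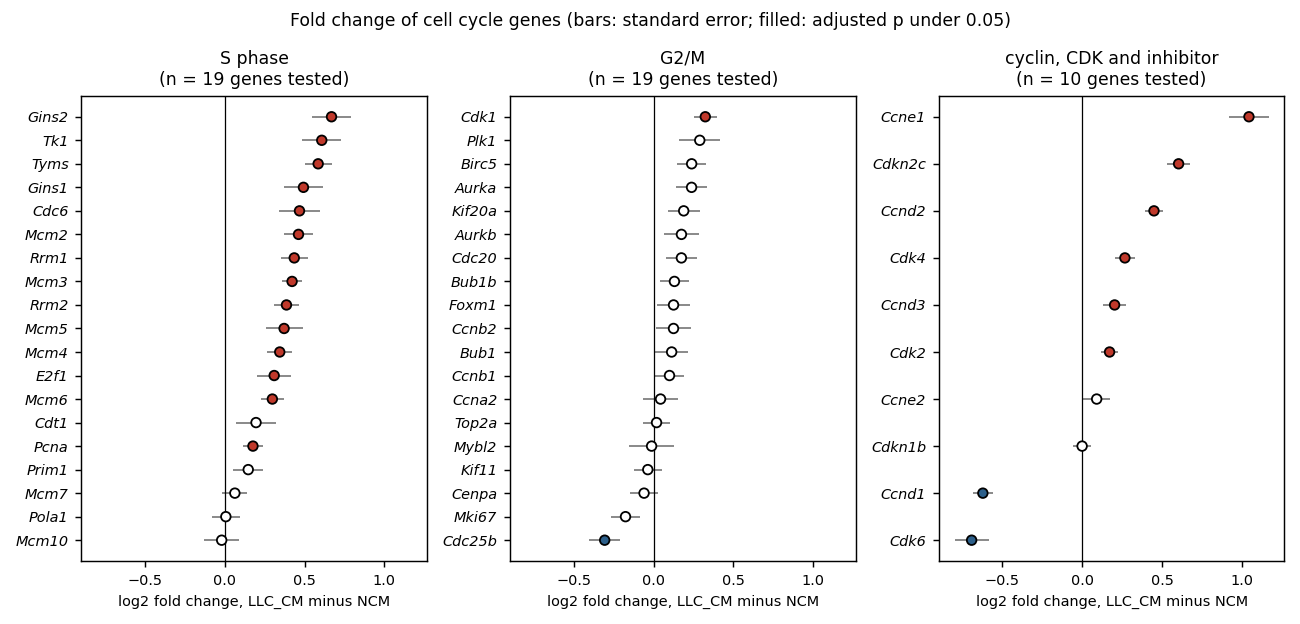
Log2 fold change (LLC_CM minus NCM, x axis) of each of the 48 tested genes in 3 panels by class, with bars of 1 standard error and 4 libraries per group; filled points passed an adjusted p of 0.05 (red higher, blue lower). S phase points lie mostly right of 0, with a median of 0.37, while G2/M points gather near 0, with a median of 0.13, and the third panel spreads from -0.69 (Cdk6) to 1.04 (Ccne1).

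Promoter sequences were searched for elements known from cell cycle genes. RefSeq promoters (build GRCm38.p6, 250 bases before to 50 bases after the start site) were matched by symbol for 40 of the 50 genes. Among S phase genes, 7 of 16 (43.8%) held an E2F-type sequence, TTTGGCGC or TTTCCCGC on either strand, against 3.42% of the 9590 tested genes with a listed promoter and 1.56% of all 32851 promoters listed. It was found in 0 of 15 G2/M genes and in 2 of 9 genes (22.2%) of the cyclin, CDK and inhibitor class, Cdk2 and Cdkn2a. Only those 2 forms were searched, so the counts leave out others such as TTTCGCGC, which occurs in the Cdk1 stretch printed below. The 4 stretches here show the E2F-type sequence in Mcm5, Mcm6 and Cdc6, which rose, and in Pola1, which did not pass the test. Each is read 5′ to 3′ on the strand of the gene over the 180 bases before the start site, with the E2F-type sequence or its reverse complement in capitals.
Mcm5 (chr8:75109329-75109508, plus strand): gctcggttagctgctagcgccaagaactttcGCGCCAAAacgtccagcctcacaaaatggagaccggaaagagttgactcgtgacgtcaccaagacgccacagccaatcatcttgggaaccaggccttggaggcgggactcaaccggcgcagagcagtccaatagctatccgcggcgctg
Mcm6 (chr1:128359706-128359885, minus strand): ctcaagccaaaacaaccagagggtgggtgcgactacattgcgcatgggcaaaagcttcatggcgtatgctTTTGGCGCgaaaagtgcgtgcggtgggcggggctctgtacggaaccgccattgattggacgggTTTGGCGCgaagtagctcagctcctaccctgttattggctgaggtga
Cdc6 (chr11:98907971-98908150, plus strand): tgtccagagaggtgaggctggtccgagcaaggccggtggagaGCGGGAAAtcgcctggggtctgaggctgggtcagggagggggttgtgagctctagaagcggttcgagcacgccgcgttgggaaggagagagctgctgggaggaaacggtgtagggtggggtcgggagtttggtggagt
Pola1 (chrX:93632156-93632335, minus strand): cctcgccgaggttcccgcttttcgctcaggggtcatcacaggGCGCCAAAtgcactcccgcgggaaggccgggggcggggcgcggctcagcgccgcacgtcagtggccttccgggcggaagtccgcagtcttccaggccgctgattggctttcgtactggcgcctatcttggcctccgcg
Of the S phase genes with a listed promoter, the sequence was present in 4 of 11 that rose and in 3 of 5 that did not pass the test. Mcm6 held it at 2 places, starting 110 and 47 bases before the start site. The other S phase genes with a match were Mcm3, with 2 places within the first 50 transcribed bases, Cdt1 and Mcm7. A match is a description of letters and not of a bound site.

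The MCM helicase and its loading factors were the largest S phase group, and 8 of 11 rose. MCM2 to MCM7 form the ring that unwinds DNA. Mcm3 read 77.0, 69.5, 84.9 and 78.4 CPM in LLC_CM and 58.6, 58.3, 55.8 and 58.7 CPM in NCM. Every LLC_CM library was above every NCM library, and Mcm3 rose by 33.9% (0.42 ± 0.06, adjusted p = 9.8e-05). Mcm2, another subunit of that ring, read 63.8, 53.9, 72.6 and 76.1 CPM in LLC_CM and 46.5, 49.9, 47.3 and 49.8 CPM in NCM. Its lowest LLC_CM library, replicate 2, still lay above all NCM libraries, and the gene rose by 37.7% (0.46 ± 0.09, adjusted p = 8.7e-04). Mcm4 (0.34 ± 0.08, adjusted p = 0.0027) and Mcm6 (0.30 ± 0.07, adjusted p = 0.0044) also rose with separate groups. Mcm5 rose by a similar amount (0.37 ± 0.12, adjusted p = 0.022), but LLC_CM replicate 2 (45.3 CPM) lay within the NCM range. The Mcm5 call ended without any 1 of LLC_CM replicates 3 and 4 or NCM replicates 1, 2 and 3 (adjusted p 0.053 to 0.081). Mcm7, the remaining subunit, had a log2 fold change of 0.06 ± 0.08 and did not pass (adjusted p = 0.57).

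GINS proteins join the MCM ring to make the active helicase, and Gins1 and Gins2, the members in the S phase class, rose. Gins3 and Gins4 were in the list of further genes described below. Gins3 (0.17 ± 0.10, adjusted p = 0.24) and Gins4 (0.19 ± 0.08, adjusted p = 0.091) did not pass the test. Gins2 read 12.0, 11.5, 14.9 and 15.8 CPM in LLC_CM and 8.26, 9.74, 7.63 and 8.48 CPM in NCM, with separate groups and the largest rise of any S phase gene, 59.0% (0.67 ± 0.12, adjusted p = 4.9e-04). Exons of Gse1 on the opposite strand overlap 67.3% of the exonic length of Gins2. The library kit does not mark strand, so their reads cannot be told apart there, and Gse1 itself had a log2 fold change of -0.16 (adjusted p = 0.25). Gins1 was less abundant, at 7.57 ± 0.696 CPM in LLC_CM and 5.37 ± 0.527 CPM in NCM (SD, n = 4), and rose with separate groups (0.49 ± 0.12, adjusted p = 0.0046). Cdc6, which loads the helicase at origins, rose as well (0.47 ± 0.13, adjusted p = 0.010), with means of 17.8 ± 2.31 CPM in LLC_CM and 12.9 ± 2.36 CPM in NCM (SD, n = 4). Cdt1, its partner in loading (0.20 ± 0.13, adjusted p = 0.25), and Mcm10, which activates the loaded helicase (-0.02 ± 0.11, adjusted p = 0.91), did not pass the test.

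All 4 genes of nucleotide supply rose, with separate groups and a median log2 fold change of 0.51. Tyms, thymidylate synthase, read 38.3, 43.1, 41.7 and 46.5 CPM in LLC_CM and 28.1, 29.7, 24.2 and 31.0 CPM in NCM. It had the smallest adjusted p of the S phase genes and rose by 50.01% (0.59 ± 0.09, adjusted p = 6.0e-05). Tk1, the thymidine kinase of the salvage route, read 31.7, 31.4, 41.7 and 47.2 CPM in LLC_CM and 22.8, 25.8, 23.9 and 27.4 CPM in NCM. Replicates 3 and 4 of LLC_CM stood above replicates 1 and 2, all 4 exceeded NCM, and the rise was 52.4% (0.61 ± 0.12, adjusted p = 0.0013). Rrm1, the large subunit of ribonucleotide reductase, read 159, 169, 155 and 162 CPM in LLC_CM and 128, 128, 94.3 and 126 CPM in NCM. NCM replicate 3 lay well under the other 3 controls, and the gene rose by 35.2% (0.44 ± 0.09, adjusted p = 9.2e-04). Its partner subunit Rrm2 rose by 30.7% (0.39 ± 0.08, adjusted p = 0.0012).

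Of the 3 members that copy the DNA strand, 1 rose. Pcna, the sliding clamp that holds DNA polymerases on the template, was the most abundant S phase gene in NCM by mean CPM, and Rrm1 was in LLC_CM. Pcna read 138, 161, 148 and 155 CPM in LLC_CM and 138, 133, 123 and 138 CPM in NCM. The groups overlapped through LLC_CM replicate 1, and the rise of 13.0% was the smallest among the S phase genes that passed (0.18 ± 0.06, adjusted p = 0.038). The Pcna call ended without any 1 of LLC_CM replicates 2, 3 and 4 or NCM replicates 1, 2, 3 and 4 (adjusted p 0.053 to 0.12). A pseudogene, Pcna-ps2, is 99.23% identical over 51.4% of the Pcna transcript and held counts equal to 8.26% of those of Pcna, so the division of reads between them is uncertain. Pola1, the catalytic subunit of DNA polymerase alpha (0.01 ± 0.09, adjusted p = 0.96), and Prim1, the primase subunit that starts each strand (0.15 ± 0.09, adjusted p = 0.25), did not pass. On a per-length scale (RPKM, here CPM per kilobase of the deposited gene length), Pcna averaged 62.7 RPKM in LLC_CM and 55.4 in NCM, the highest of the S phase genes.

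E2f1, the transcription factor that drives many of these genes, read 28.0, 30.8, 40.9 and 37.6 CPM in LLC_CM and 28.6, 28.6, 28.9 and 24.9 CPM in NCM. LLC_CM replicates 3 and 4 were the highest, replicate 1 fell within the control range, and E2f1 rose by 23.9% (0.31 ± 0.11, adjusted p = 0.035). The E2f1 call ended without any 1 of LLC_CM replicates 3 and 4 or NCM replicates 1, 2, 3 and 4 (adjusted p 0.053 to 0.13). Without LLC_CM replicate 3 its log2 fold change was 0.21.

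Genes outside the 50 that serve replication were counted in the same test. They came from a list of 129 further cell cycle genes, written from general knowledge but with earlier results of these data known. Among all genes tested, 18.8% rose and 18.1% fell. Of 17 genes of origin recognition and firing 5 (29.4%) rose and 0 fell, with a median log2 fold change of 0.17. The risers included Orc6, of the origin recognition complex (0.40 ± 0.08, adjusted p = 0.0014), Cdc45, the partner of MCM and GINS in the helicase (0.39 ± 0.10, adjusted p = 0.0050), and Wdhd1, which links helicase and polymerase (0.32 ± 0.08, adjusted p = 0.0066). Of 23 genes of polymerases, clamp loading and Okazaki fragment processing 9 (39.1%) rose and 0 fell, with a median of 0.24. Risers here included Prim2 (0.36 ± 0.07, adjusted p = 6.0e-04), the DNA ligase Lig1 (0.40 ± 0.09, adjusted p = 0.0025) and the clamp loader subunit Rfc3 (0.36 ± 0.09, adjusted p = 0.0044). Of 12 further genes of nucleotide supply 3 (25%) rose and 1 fell, with a median of 0.00026. The 3 that rose were Dtymk, which makes thymidine diphosphate (0.39 ± 0.06, adjusted p = 2.3e-04), Dut, which removes dUTP (0.54 ± 0.12, adjusted p = 0.0026), and Umps, of pyrimidine synthesis (0.20 ± 0.06, adjusted p = 0.012). Samhd1, an enzyme that degrades deoxynucleotides, fell (-0.27 ± 0.06, adjusted p = 0.0025). In each of these 10 genes the LLC_CM and NCM values were separate, where 36.3% of all genes tested had separate groups. Here and below, genes of this list were named for the smallest adjusted p in their role and direction, which favours separate groups. The count of origin genes that rose was 3 without LLC_CM replicate 3 or NCM replicate 1. The count of polymerase and clamp loading genes that rose was 5 without LLC_CM replicate 3 or 4. The count of nucleotide supply genes that fell was 2 without NCM replicate 1 and 3 without LLC_CM replicate 4.

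**Figure D2:**
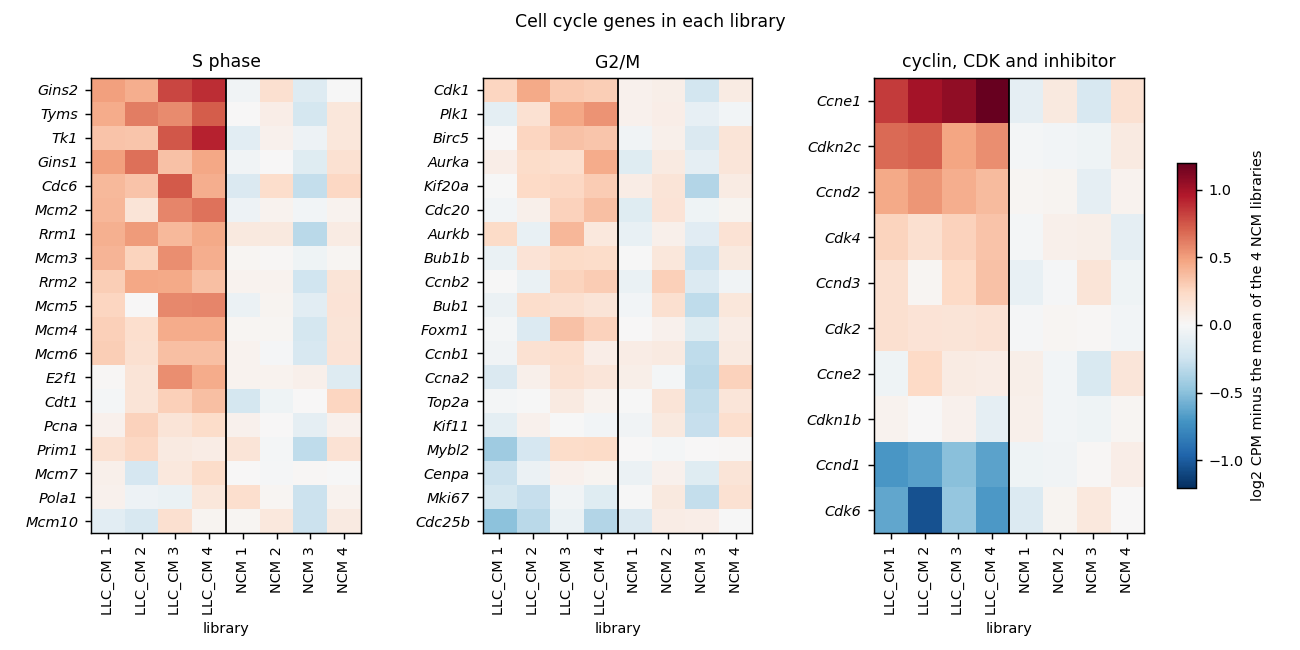
Log2 CPM of the 48 tested genes (rows, by class) in each of the 8 libraries (columns), minus the mean of the 4 NCM libraries, red above and blue below. The upper S phase rows are red in all 4 LLC_CM libraries, whereas G2/M rows are pale, with NCM replicate 3 blue in many of them and lowest of its group for 15 of 19.

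G2/M genes showed little change as a class: 17 of 19 did not pass the test, 5 had an unadjusted p under 0.05, and log2 fold changes ran from -0.31 to 0.32. TTTGAA, the core of the cell cycle homology region through which MuvB complexes act on late cell cycle genes, was present on either strand in 10 of 15 G2/M genes (66.7%), 1 of 16 S phase genes (6.25%) and 1 of 9 genes (11.1%) of the third class, Cdkn2b. It was present in 14.1% of tested genes with a listed promoter and in 17.9% of all listed promoters. CCAAT was frequent in both classes, in 13 of 15 G2/M and 11 of 16 S phase genes, against 43.5% of tested genes with a listed promoter and 37.4% of all listed promoters, and in 5 of 9 genes of the third class. The 3 promoters below show TTTGAA in capitals in the 180 bases before the start site of Cdk1, which rose, and of Cdc20 and Mki67, which did not pass the test.
Cdk1 (chr10:69352913-69353092, minus strand): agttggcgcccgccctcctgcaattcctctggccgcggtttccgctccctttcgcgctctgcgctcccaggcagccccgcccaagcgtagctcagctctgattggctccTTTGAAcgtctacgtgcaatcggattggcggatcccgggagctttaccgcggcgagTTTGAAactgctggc
Cdc20 (chr4:118437344-118437523, minus strand): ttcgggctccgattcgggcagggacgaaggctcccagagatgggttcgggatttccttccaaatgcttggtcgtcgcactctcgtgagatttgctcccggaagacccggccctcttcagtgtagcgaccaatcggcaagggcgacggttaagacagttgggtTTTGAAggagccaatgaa
Mki67 (chr7:135716380-135716559, minus strand): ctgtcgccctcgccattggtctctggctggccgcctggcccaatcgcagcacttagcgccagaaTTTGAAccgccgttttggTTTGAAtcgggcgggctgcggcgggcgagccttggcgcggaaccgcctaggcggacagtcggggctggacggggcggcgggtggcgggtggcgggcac
In Cdk1 and Mki67 the sequence occurs at 2 places within this stretch and in Cdc20 at 1.

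**Figure D3:**
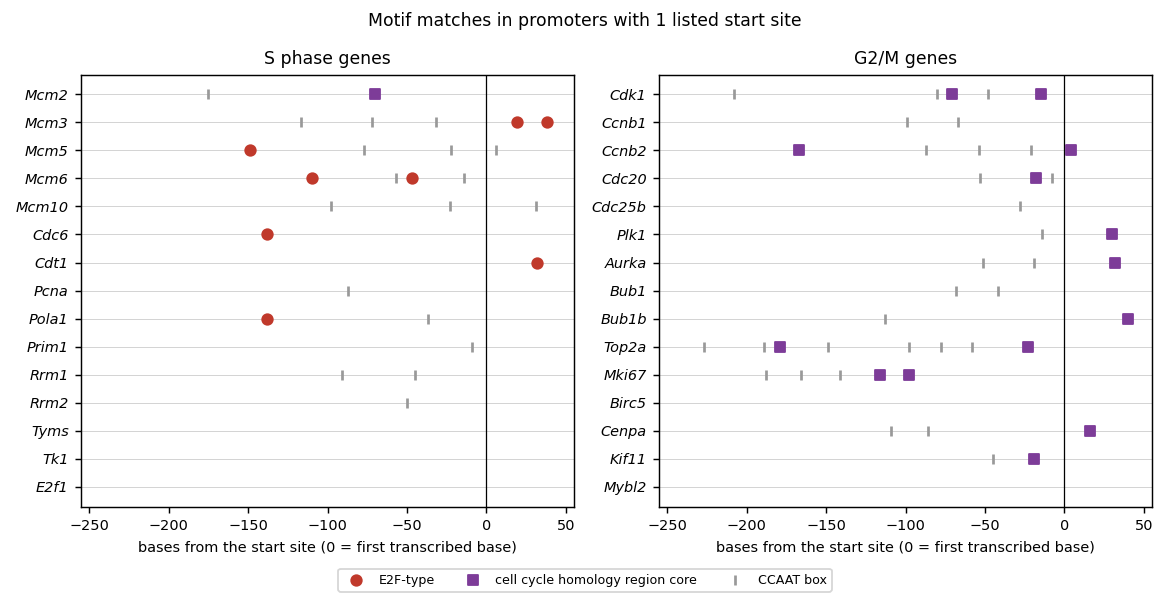
Positions of the searched sequences relative to the RefSeq start site (x axis, bases, 0 being the first transcribed base) in S phase and G2/M genes with 1 listed promoter, one gene per line. Circles mark the E2F-type sequences TTTGGCGC and TTTCCCGC, the only forms searched, squares TTTGAA and ticks CCAAT. Of the 2 classes drawn, circles appear on S phase lines alone, and squares on 10 G2/M lines and 1 S phase line, that of Mcm2; the cyclin, CDK and inhibitor class is not drawn.

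Cdk1, the kinase that drives entry into mitosis, read 108, 124, 112 and 111 CPM in LLC_CM and 93.8, 95.3, 77.4 and 96.7 CPM in NCM. It was the only G2/M gene with separate groups, and it rose by 25.2% (0.32 ± 0.07, adjusted p = 0.0026). NCM replicate 3 was the lowest control by a wide margin. The cyclins that bind this kinase did not pass: Ccna2 (0.04 ± 0.11, adjusted p = 0.80), Ccnb1 (0.10 ± 0.09, adjusted p = 0.42) and Ccnb2 (0.13 ± 0.11, adjusted p = 0.42). A pseudogene, Ccnb1-ps, is 99.22% identical over 51.7% of the Ccnb1 transcript and held counts equal to 3.47% of those of Ccnb1. Cdc25b, the phosphatase that activates CDK1, read 18.4, 20.6, 24.5 and 20.2 CPM in LLC_CM and 22.9, 27.5, 27.3 and 25.8 CPM in NCM. Replicate 3 of LLC_CM lay above replicate 1 of NCM, so the groups overlapped, and the gene fell by 19.1% (-0.31 ± 0.10, adjusted p = 0.021). The Cdc25b call ended without either LLC_CM replicate 1 or NCM replicate 2 (adjusted p 0.064 to 0.069).

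Mitotic kinases and checkpoint genes mostly had positive values that missed the threshold. Aurka, the aurora kinase of the spindle poles, read 20.2, 22.2, 22.0 and 26.0 CPM in LLC_CM and 17.3, 20.6, 17.7 and 21.1 CPM in NCM, a log2 fold change of 0.24 ± 0.10 (adjusted p = 0.070). Plk1, the polo kinase, read 11.7, 14.4, 17.5 and 18.4 CPM in LLC_CM and 13.1, 13.4, 11.9 and 12.4 CPM in NCM. LLC_CM replicate 1 was the lowest of the 8 Plk1 values and replicates 3 and 4 the highest, with a log2 fold change of 0.29 ± 0.13 (adjusted p = 0.090). Without LLC_CM replicate 1, Plk1 passed at 0.40 (adjusted p = 0.013). Cdc20, which activates the anaphase-promoting complex (0.17 ± 0.10, adjusted p = 0.18), Aurkb, the aurora kinase of the chromosomal passenger complex (0.18 ± 0.11, adjusted p = 0.22), and the checkpoint kinases Bub1 (0.11 ± 0.10, adjusted p = 0.42) and Bub1b (0.13 ± 0.09, adjusted p = 0.28) did not pass.

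Chromosome and spindle genes were split in direction, with 3 of 6 positive and 0 called. Birc5, the survivin of the passenger complex, came closest, at 31.3, 37.3, 39.8 and 39.3 CPM in LLC_CM and 30.3, 32.6, 27.5 and 34.7 CPM in NCM (0.24 ± 0.09, adjusted p = 0.051). It passed without LLC_CM replicate 1 (0.30, adjusted p = 0.016) and without NCM replicate 4 (0.29, adjusted p = 0.035). Top2a, the topoisomerase that untangles chromosomes and the most abundant G2/M gene by CPM, read 247, 250.03, 271 and 259 CPM in LLC_CM and 251, 279, 205 and 278 CPM in NCM. All 4 LLC_CM values fell inside the NCM range, and the log2 fold change was 0.02 ± 0.09 (adjusted p = 0.89). Mki67, the proliferation antigen Ki-67, read 213, 204, 240.4 and 223 CPM in LLC_CM and 245, 268, 202 and 280.0 CPM in NCM, with 3 controls above every treated library and NCM replicate 3 below all 4. Its log2 fold change was -0.18 ± 0.09 (adjusted p = 0.14), and without NCM replicate 3 it was -0.27 (adjusted p = 0.0088). The centromeric histone Cenpa (-0.06 ± 0.09, adjusted p = 0.63) and the spindle motors Kif11 (-0.04 ± 0.09, adjusted p = 0.79) and Kif20a (0.19 ± 0.10, adjusted p = 0.16) did not pass; Cdc23 overlaps 29.3% of the exonic length of Kif20a on the opposite strand. Nor did the transcription factors of this class, Foxm1 (0.13 ± 0.10, adjusted p = 0.37) and Mybl2 (-0.01 ± 0.14, adjusted p = 0.96).

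The count of G2/M genes that rose was 3 without LLC_CM replicate 1 and 2 without NCM replicate 4, and the count that fell was 0 without LLC_CM replicate 1 or NCM replicate 2 and 2 without NCM replicate 3. The class median of 0.13 became 0.05 without NCM replicate 3 and 0.07 without LLC_CM replicate 3. The wider list grouped 44 further genes as mitotic, some of them not confined to mitosis, such as Cks1b, H2afz and Cdc25a. Of these 44, 8 (18.2%) rose and 3 (6.82%) fell, where 18.8% and 18.1% of all genes tested did. The rises numbered 3 without NCM replicate 3, 4 without LLC_CM replicate 3 or 4, and 5 without NCM replicate 1 or 2. The falls numbered 1 without any 1 of LLC_CM replicates 1 and 2 or NCM replicates 1, 2 and 4. Risers included Pttg1, the securin (0.42 ± 0.07, adjusted p = 2.7e-04), Cks1b, a CDK-binding subunit (0.42 ± 0.10, adjusted p = 0.0033), and H2afz, a histone variant (0.26 ± 0.07, adjusted p = 0.0093), all with separate groups. Cdc25a, a phosphatase that activates CDKs, fell with separate groups (-0.46 ± 0.08, adjusted p = 4.5e-04). Anln (-0.28 ± 0.10, adjusted p = 0.037) and Ect2 (-0.24 ± 0.09, adjusted p = 0.043), both of cytokinesis, fell with overlapping groups. The Anln call ended without any 1 of LLC_CM replicates 1 and 2 or NCM replicates 1, 2 and 4 (adjusted p 0.057 to 0.11). The Ect2 call ended without any 1 of LLC_CM replicates 1, 2 and 4 or NCM replicates 1, 2 and 4 (adjusted p 0.053 to 0.11).

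The cyclins and CDKs of G1 changed in opposite directions within families. Ccnd1, the cyclin D1 that mitogens induce (chr7:144929931-144939869, mm10 as in the deposited table), read 192, 199, 219.8 and 200.3 CPM in LLC_CM and 301, 304, 316 and 329 CPM in NCM. Every LLC_CM library lay well under every NCM library, and Ccnd1 fell by 35.1% (-0.62 ± 0.06, adjusted p = 1.0e-06). Lto1, listed in the table as Oraov1, overlaps 23.4% of its exonic length on the opposite strand and had a log2 fold change of -0.21. Ccnd2, the second D cyclin, read 259, 272, 255 and 246 CPM in LLC_CM and 192, 193, 175 and 194 CPM in NCM. The order of the groups was the opposite, and Ccnd2 rose by 36.6% (0.45 ± 0.06, adjusted p = 1.9e-05). Ccnd3 read 122, 108, 126 and 136 CPM in LLC_CM and 100.3, 106, 119 and 103 CPM in NCM, with NCM replicate 3 inside the LLC_CM range, and rose by 15.1% (0.20 ± 0.07, adjusted p = 0.044). The Ccnd3 call ended without any 1 of LLC_CM replicates 1, 3 and 4 or NCM replicates 1, 2 and 4 (adjusted p 0.092 to 0.17).

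Per length, Ccnd1 averaged 52.9 RPKM in LLC_CM and 81.4 in NCM, Ccnd2 45.2 RPKM in LLC_CM and 33.1 in NCM, and Ccnd3 14.0 RPKM in LLC_CM and 12.2 in NCM. The RPKM ratio of Ccnd2 to Ccnd1 was 0.858 ± 0.067 in LLC_CM and 0.407 ± 0.027 in NCM (SD, n = 4 each). It ran from 0.780 to 0.922 over the LLC_CM libraries and from 0.374 to 0.430 over the NCM libraries, so Ccnd1 was the more abundant transcript per length in all 8.

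Ccne1, cyclin E1, the partner of CDK2 at the entry to S phase (chr7:38097984-38107534), read 10.6, 11.8, 12.4 and 14.2 CPM in LLC_CM and 5.46, 6.38, 5.16 and 6.72 CPM in NCM. The lowest treated library lay well above the highest control, and Ccne1 rose 2.06-fold (1.04 ± 0.12, adjusted p = 7.7e-06), the largest rise among the 48 genes. Ccne2, the other E cyclin, read 27.6, 33.9, 30.8 and 30.4 CPM in LLC_CM and 30.1, 28.0, 25.3 and 31.7 CPM in NCM, with overlapping groups and no call (0.09 ± 0.09, adjusted p = 0.45); Ints8 overlaps 17.4% of its exonic length on the opposite strand. The RPKM ratio of Ccne1 to Ccne2 was 0.525 ± 0.065 in LLC_CM and 0.271 ± 0.025 in NCM (SD, n = 4 each), so Ccne2 stayed the more abundant of the pair per length.

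Of the kinases, Cdk6, a partner of the D cyclins (chr5:3343893-3523218), read 22.3, 16.6, 24.9 and 21.3 CPM in LLC_CM and 30.7, 35.1, 37.4 and 34.5 CPM in NCM. LLC_CM replicate 2 was the lowest of the 8, the groups were separate, and Cdk6 fell by 38.1% (-0.69 ± 0.11, adjusted p = 1.1e-04), the largest fall among the 48 genes. Cdk4, which serves the same cyclins and was the most abundant gene of this class in LLC_CM by mean CPM, with Ccnd1 above it in NCM, read 299.99, 285, 302 and 315 CPM in LLC_CM and 245, 259.7, 262 and 232 CPM in NCM. It rose by 20.4% with separate groups (0.27 ± 0.06, adjusted p = 0.0028). Tspan31 overlaps 19.7% of the exonic length of Cdk4 on the opposite strand and had a log2 fold change of 0.01. The RPKM ratio of Cdk4 to Cdk6 was 16.6 ± 2.46 in LLC_CM and 8.36 ± 0.64 in NCM (SD, n = 4 each). Cdk2, the partner of the E cyclins, read 49.3, 48.5, 48.0 and 48.8 CPM in LLC_CM and 42.9, 43.9, 43.7 and 42.3 CPM in NCM. Its libraries were tightly grouped and separate, and it rose by 12.6% (0.17 ± 0.06, adjusted p = 0.025). The Cdk2 call ended without any 1 of LLC_CM replicates 1 and 4 or NCM replicates 1, 2 and 4 (adjusted p 0.058 to 0.081).

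**Figure D4:**
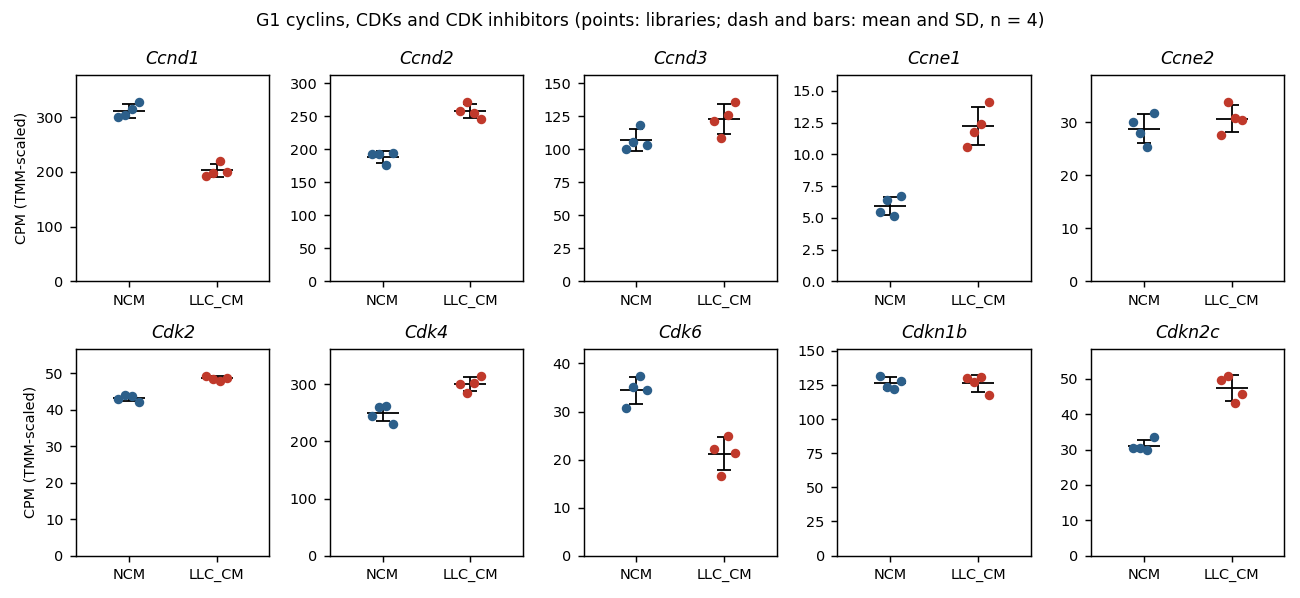
CPM on TMM-scaled totals (y axis, from 0) of 10 G1 cyclins, CDKs and CDK inhibitors in NCM and LLC_CM; points are libraries, the dash and bars the mean and SD of 4. Ccnd1 and Cdk6 lie lower in LLC_CM with no overlap, Ccnd2, Ccne1, Cdk2, Cdk4 and Cdkn2c lie higher with no overlap, and the Ccnd3, Ccne2 and Cdkn1b points overlap.

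CDK inhibitors differed from one another. Cdkn2c, the p18 inhibitor of CDK4 and CDK6 (chr4:109660876-109667189), read 49.8, 50.9, 43.1 and 45.8 CPM in LLC_CM and 30.5, 30.5, 30.02 and 33.6 CPM in NCM. All treated libraries lay above all controls, and Cdkn2c rose by 52.0% (0.60 ± 0.07, adjusted p = 7.9e-06). Cdkn1b, the p27 inhibitor of CDK2, read 129.9, 127, 131 and 117 CPM in LLC_CM and 132, 123, 122 and 128 CPM in NCM. The groups overlapped almost fully, at 126 ± 6.13 CPM in LLC_CM and 126 ± 4.44 CPM in NCM (SD, n = 4 each), and the gene was not called (adjusted p = 0.99).

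Cdkn2a (chr4:89274471-89294653), which encodes p16 and p19ARF, and Cdkn2b (chr4:89306289-89311032), which encodes p15, had 0 counts in all 8 libraries. A count of 0 allows up to 3 counts, or 0.084 to 0.111 CPM per library, for counting error only. They were part of a run of 11 consecutive genes of the table, from Mtap to Gm27580 (chr4:89137122-89463487), with 0 counts throughout. Mtap, an enzyme of methionine salvage that most tissues express, was named after its values were seen. The gene before the run, Gm12602, held 1921 counts over the 8 libraries, and the gene after it, Dmrta1, held 1. Of the 11 genes in the run, 3 were protein coding: Mtap, Cdkn2a and Cdkn2b. In a window reaching 1000000 bases beyond Cdkn2a and Cdkn2b on each side, 54 of 70 genes had no count. Many of those outside the run were interferon genes, such as Ifnb1 and Ifna2. The other 16 genes held counts, among them Klhl9 with 26384 and Focad with 12011 over the 8 libraries. Of all genes deposited, 47.1% had no count. The reason for the run was not tested.

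A further 15 genes were grouped as CDK inhibitors, cyclins and CDKs, but the group also held others, such as the ubiquitin ligase subunits Skp2 and Fbxw7. Of these 15, 14 were tested, 1 (7.14%) rose and 4 (28.6%) fell. Cdkn1a, the p21 inhibitor, read 271, 268, 270.0 and 243 CPM in LLC_CM and 447, 434, 476 and 424 CPM in NCM. Every treated library lay far under every control, and the gene fell by 40.9% (-0.76 ± 0.06, adjusted p = 2.0e-07). Skp2, the ubiquitin ligase subunit that marks p27 for degradation, averaged 24.3 ± 1.38 CPM in LLC_CM and 48.3 ± 2.90 CPM in NCM (SD, n = 4), and fell (-0.99 ± 0.07, adjusted p = 3.2e-08). Fbxw7, the ubiquitin ligase subunit that marks cyclin E for degradation, averaged 17.0 ± 0.581 CPM in LLC_CM and 42.5 ± 2.21 CPM in NCM (SD, n = 4), and fell (-1.32 ± 0.07, adjusted p = 1.1e-09). Both had separate groups. Ccnh, the cyclin of the CDK-activating kinase, rose (0.39 ± 0.08, adjusted p = 0.0011), and without LLC_CM replicate 4 the rises in this group numbered 2. Among 18 E2F, RB and DREAM proteins 1 (5.56%) rose and 2 (11.1%) fell: the E2F partner Tfdp1 rose (0.20 ± 0.06, adjusted p = 0.011), and the pocket proteins Rb1 (-0.54 ± 0.10, adjusted p = 5.9e-04) and Rbl2 (-0.21 ± 0.06, adjusted p = 0.012) fell, all with separate groups. The Tfdp1 call ended without NCM replicate 1 (adjusted p = 0.054), and the falls in this group numbered 4 without LLC_CM replicate 4. Over the whole list of 129 further genes, 128 were tested, 27 (21.1%) rose, 10 (7.81%) fell and the median log2 fold change was 0.12, where 18.8% of all genes tested rose and 18.1% fell. Without LLC_CM replicate 3 the number that rose was 17.

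Single libraries stood apart across the classes. For each gene the mean log2 CPM of the 8 libraries was subtracted and the median over the class was taken. S phase medians were 0.10, 0.05, 0.26 and 0.23 in LLC_CM replicates 1 to 4 and -0.16, -0.14, -0.35 and -0.04 in NCM. G2/M medians were -0.11, 0.03, 0.15 and 0.13 in LLC_CM and -0.05, 0.05, -0.23 and 0.05 in NCM. The S phase values of the groups were apart and the G2/M values interleaved. Medians of the cyclin, CDK and inhibitor class lay between 0.07 and 0.12 in LLC_CM and between -0.13 and -0.07 in NCM, and those of all genes tested were within 0.02 of 0. NCM replicate 3 was the lowest control for 34 of the 48 genes, and LLC_CM replicate 1 the lowest treated library for 23 of 48 and for 15 of 19 G2/M genes. Without NCM replicate 3 the S phase median log2 fold change was 0.32 and 11 S phase genes rose.

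**Figure D5:**
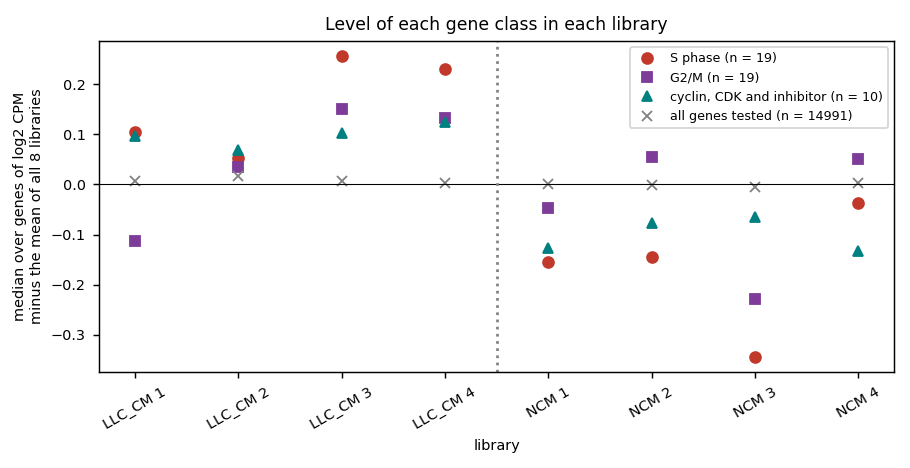
Median over the genes of each class of log2 CPM minus the mean of the gene over all 8 libraries (y axis), for each library (x axis). S phase medians of all LLC_CM libraries lie above all NCM libraries, G2/M medians mix, with -0.23 in NCM replicate 3 the lowest, and the median of all genes tested stays within 0.02 of 0.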

How the data were processed

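The deposited table holds raw read counts per gene, as whole numbers, for 8 poly(A)-selected libraries, with a gene length column. The submitters' processing notes name STAR, featureCounts, CASAVA and the build mm10; tool versions are not given in the sources used here. Column names were matched to sample titles, which gave the group and number of each library. Members, classes and gene lists were chosen with earlier results of these data known. In every library values are given for the 5 members of each class with the smallest adjusted p, the member most abundant by mean over the 8 libraries, every member that fell, and every CDK inhibitor and D cyclin, with others added. Of the wider list, up to 3 genes per role and direction with the smallest adjusted p were named.

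Of 43346 genes, 22913 had counts, and filterByExpr of edgeR kept 14991. Genes were tested in R 4.3.3 with edgeR 4.0.16 (quasi-likelihood F test, TMM factors, robust estimation, no covariate). P-values were adjusted by Benjamini and Hochberg's method across the 14991 genes and called at 0.05. On simulated data the fit recovered 75.9% of 58 genes changed 1.5-fold, 82.4% of 68 changed 2-fold and 95.9% of 74 changed 4-fold. Changes under 1.5-fold, the size of most changes here, were not simulated. Each SE was obtained as the size of the log2 fold change over the root of its F statistic. Log2 CPM used a prior count of 2, and RPKM used the deposited length. That length was shorter than the exonic length in GENCODE M21 for Cdk6 (3735 against 13989 bases), Ccnd2 (5701 against 9409) and Ccnd1 (3835 against 4709). RPKM ratios between genes therefore depend on the lengths used. Alternatives were DESeq2 1.42.0 (size factors or test), upper-quartile factors, library size alone, other low-count filters, limma-voom (limma 3.58.1), replicate terms, a threshold of 0.01 and leaving out each library. Exon overlaps came from GENCODE M21. Near-identical transcripts came from blastn 2.17.0 (at least 90% identity over 15% of the transcript), and apart from Pcna and Ccnb1 such copies held under 1% of a member's counts or were not used here.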

Additional observations from a re-analysis of the deposited data

Results flagged for a closer look

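In 8 of the 96 sets of 4 values (48 genes in 2 groups), 1 library stood far from the other 3, past Dixon's 95% critical value; chance gives about 1 in 20. All 8 were NCM libraries, and 6 were NCM replicate 3. That library was low for Mcm3 (55.8 CPM, others 58.3 to 58.7), Rrm1 (94.3 CPM, others 126 to 128), Cdk1 (77.4 CPM, others 93.8 to 96.7), Ccnb1 (37.6 CPM, others 49.4 to 50.1), Kif20a (44.7 CPM, others 60.7 to 63.3) and Ccnd2 (175 CPM, others 192 to 194). NCM replicate 4 was low for E2f1 (24.9 CPM, others 28.6 to 28.9) and high for Cdkn2c (33.6 CPM, others 30.02 to 30.53). Mcm3, Rrm1, Cdk1, Ccnd2 and Cdkn2c kept their calls without either library.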

How the results depend on the processing

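Each result was recomputed under 18 other settings, 8 of which left out 1 library. Of the 24 genes called, 17 kept call and direction in all 18 and 0 changed sign. Those that lost the call somewhere were Ccnd3, Cdk2, E2f1, Mcm5, Pcna, Cdc25b and, at a threshold of 0.01 alone, Cdc6. Of the 23 named genes of the wider list, 18 kept call and direction and 0 changed sign. The median of all genes moved by at most 0.013.

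The count of G2/M genes that rose, 1 in the reported fit, was 2 with upper-quartile factors, without a low-count filter or when 4 libraries had to reach 1 CPM, and 3 with a term for odd against even numbers. At 0.01 the G2/M falls numbered 0, the rises of the wider list 13 and its falls 6; a stricter threshold calls fewer genes by construction. For the other settings the cause was not tested. Leaving out 1 library gave 1 to 3 G2/M rises, 0 to 2 G2/M falls, 11 to 14 S phase rises, 4 to 6 rises in the cyclin, CDK and inhibitor class, and 17 to 27 rises and 8 to 14 falls in the wider list.

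With the replicate number as a block the counts were 14 S phase rises, 3 G2/M rises (Cdk1, Birc5 and Aurka) and 5 rises in the cyclin class, where Cdk2 was lost. Deviations of same-numbered libraries correlated at -0.04 to 0.20 over 4 pairs, against -0.23 to 0.18 over the 12 other pairs, so the number was not taken to pair the libraries.

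Sign changes were limited to 8 genes without a call. Pola1 was -0.00182 with DESeq2 size factors and -0.00180 with the DESeq2 test, Mybl2 was 0.000907 with upper-quartile factors, and Cdkn1b was 0.0122 with upper-quartile factors and 0.00715 with the 1 CPM filter. Over the fits without 1 library the ranges were -0.00239 to 0.141 for Mcm7, -0.106 to 0.0350 for Mcm10, -0.0802 to 0.0653 for Pola1, -0.0618 to 0.135 for Ccna2, -0.0779 to 0.0607 for Top2a, -0.128 to 0.0261 for Kif11, -0.112 to 0.0976 for Mybl2 and -0.0277 to 0.0247 for Cdkn1b. Depth sets the limit for Cdkn2a and Cdkn2b, where 3 counts correspond to 0.084 to 0.111 CPM.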
